A study of Mus musculus with 8 samples.

Results

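The transcriptome described here is that of Lgr5-traced cells sorted from injured mouse skin that kept its regulatory T cells (Treg-sufficient). It rests on 4 of the 8 libraries of the series, those whose condition label reads Treg-sufficient, taken across all genes and without the Treg-depleted libraries. All 4 carry the strain label Lg5-egfp-ires-creert2/R26-tdTomato, the cell type label of Lgr5 hair follicle stem cells and the treatment label skin injury. That strain joins a GFP and a tamoxifen-inducible Cre recombinase driven from the Lgr5 locus to a tdTomato reporter at R26, so that cells with an active Lgr5 promoter, and later their progeny, become red. Experiment 1 gave replicates 1 and 2, and experiment 2 gave replicates 3 and 4. How the skin was wounded and when, the age of the mice, the labelling schedule and the sorting gates: none of this is given in the sources used here. Nor do the labels say whether replicates came from separate mice, so p-values measure only how far these samples scatter, which may be technical in part.

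Lgr5 is a receptor for R-spondins that strengthens Wnt signalling, and in resting skin it marks stem cells of the lower bulge and the hair germ at the base of the hair follicle. These cells feed the outer root sheath, the inner root sheath and the hair shaft during growth. After wounding, follicle cells can leave the follicle and contribute to the interfollicular epidermis. A traced population can therefore hold stem cells, their progeny in the follicle and progeny outside it.

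Totals over genes were 27263384, 28850186, 26608260 and 29975347 counts in replicates 1 to 4. Symbols for 45229 of the 46078 listed genes came from the GENCODE M21 annotation of GRCm38. Replicates 2 and 3 stood apart from the others before any comparison. Xist, the noncoding RNA made from the inactive X chromosome, was at 1.69, 2713, 1.28 and 0.967 counts per 1000000 counts of the library (CPM) in replicates 1 to 4, and Y-linked genes summed to 352, 23.6, 349 and 435 CPM, so replicate 2 had the pattern of female cells and the other 3 that of male cells. Replicate 3 had a count for 19593 genes, against 21720, 22700 and 22789 in replicates 1, 2 and 4. Across the 10029 genes with a mean of at least 10 CPM, Spearman's rho ran from 0.934 (replicates 2 and 3) to 0.973 (replicates 1 and 2); these are correlations across genes, which are not independent replicates. Results that rest on either library are given with the values of all 4.

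Each library held a broad transcriptome. A level of at least 1 CPM in all 4 libraries was reached by 13067 genes, of which 11816 are protein coding and 388 are lincRNA or antisense genes. At least 10 CPM was reached by 9487 genes, at least 100 CPM by 2129 and at least 1000 CPM by 41. The 1256 most abundant genes by mean CPM held 50% of the counts, and the 10 most abundant held 5.04%. Mitochondrially encoded genes made up 1.83% of the counts and cytosolic ribosomal protein genes 5.52%. Ribosomal protein genes summed to 59214, 49131, 63953 and 48633 CPM, higher in replicates 1 and 3 than in 2 and 4, so that their order did not follow the experiment number.

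Keratins of basal and follicle keratinocytes led the transcriptome. To compare genes with each other, counts were divided by exon length and scaled to a total of 1000000 in each library (TPM), and values are means ± SD over the 4 libraries. Krt5, the type II keratin of basal keratinocytes, was the highest nuclear protein-coding gene at 15286 ± 2984 TPM (chromosome 15, 101707070 to 101712898). It was followed by its usual type I partners, Krt15 at 11692 ± 4069 TPM (chromosome 11, 100131758 to 100135928) and Krt14 at 11212 ± 3039.9 TPM (chromosome 11, 100203162 to 100207548). Krt15 is a marker of the bulge as well as a basal keratin. Krt17, a type I keratin of the outer root sheath and of injured epidermis, was the sixth at 4776 ± 794 TPM (chromosome 11, 100256217 to 100261029). Of the 25 nuclear protein-coding genes highest per length, 12 encode ribosomal proteins and several others serve translation or protein folding, such as Eef1a1 and Eef2, which carry transfer RNAs to the ribosome and move it along, and the chaperone Hsp90ab1. Perp, a desmosome-associated protein that depends on p63, was at 3491 ± 141 TPM, the galectin Lgals7 at 3317 ± 297, the apolipoprotein Apoe at 3023 ± 1004 and the calcium-binding protein S100a11 at 2636 ± 320.2. Ribosomal protein genes and Eef1a1 have many near-identical pseudogene copies, and reads aligned to several places were counted for no gene, so their levels are uncertain.

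**Figure D1:**
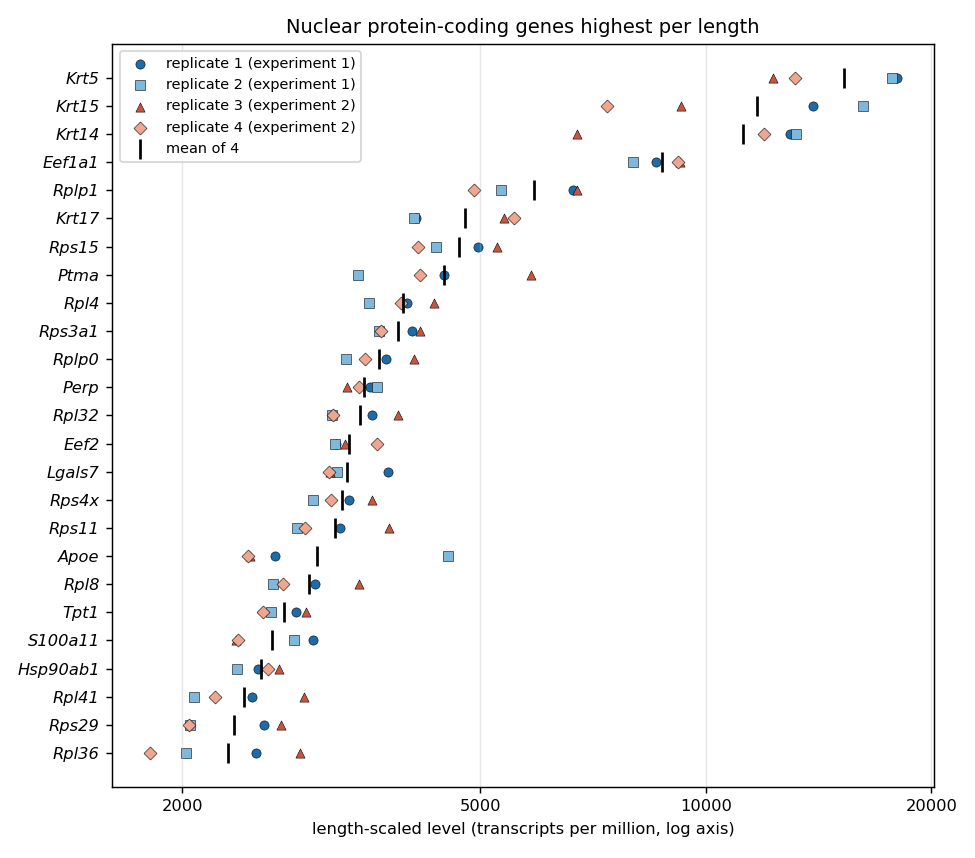
Length-scaled level of the 25 nuclear protein-coding genes highest per length, in TPM on a log axis. Points are the 4 Treg-sufficient libraries and the vertical mark is their mean. Krt5, Krt15 and Krt14 lie above all the other genes in the mean, and among them replicate 3 or 4 is lowest in each.

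The CPM values of the leading keratins were highest in experiment 1. Krt5 was at 11668, 10955, 7973 and 7946 CPM in replicates 1 to 4, Krt15 at 7257, 8057, 4839 and 3587 and Krt14 at 6716, 6538, 3489 and 5789. For each of the 3 both libraries of experiment 1 lay above both of experiment 2. Of the 16720 genes tested between experiments, 21.7% had that order. Krt17 ran the other way, at 1879, 1780.2, 2465 and 2363 CPM. Over all 53 keratin genes the sum was 31273, 30558, 21047 and 22019 CPM, and 25 of them reached 1 CPM in every library. Krt5 alone held 33.0% of the keratin TPM, Krt15 25.2%, Krt14 24.2% and Krt17 10.3%. Type I and type II keratins pair in filaments, and the ratio of type I to type II TPM was 1.58, 1.74, 1.58 and 1.74 in replicates 1 to 4. Krt79, of the upper follicle, was at 731 ± 106 TPM, and Krt6a, of the companion layer and of injured epidermis, at 659.7 ± 346. The suprabasal pair Krt1 and Krt10 stood at 309 ± 214 and 575 ± 378 TPM.

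Markers of the labelled cell type were present in every library. Lgr5 itself (ENSMUSG00000020140, chromosome 10, 115450311 to 115587780) was at 405, 498, 350.1 and 442 CPM in replicates 1 to 4, or 145 ± 25.1 TPM, with a coefficient of variation (CV, the SD as a percent of the mean) of 14.7%. The libraries of the 2 experiments overlapped for it. All 12 bulge genes and all 10 genes of the hair germ and lower follicle reached 1 CPM in all 4 libraries. Among the transcription factors of the bulge, Lhx2 was at 407, 361, 528 and 374 CPM, Sox9 at 221, 323, 238 and 335 and Tbx1 at 229.7, 237, 233 and 209. Lhx2 was highest in replicate 3, Sox9 was higher in replicates 2 and 4 than in 1 and 3, and Tbx1 hardly differed between libraries. Cd34, a sialomucin that marks mouse bulge stem cells, was at 282, 246, 86.3 and 74.5 CPM. Both libraries of experiment 1 were thus well above both of experiment 2 for Cd34, while their Lgr5 values interleaved. Postn, a matricellular protein of the bulge, was at 2605, 6067, 1218 and 1588 CPM, and replicate 2 stood above the rest. Fgf18, a growth factor of the resting bulge, had the largest CV of the list (103%), at 37.2, 6.17, 16.01 and 1.67 CPM.

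Hair germ genes included Hedgehog targets at clear levels in each library. Gli1 and Ptch1, 2 standard targets of the pathway, were at 373, 273, 479 and 333 CPM and 490.0, 287, 796 and 454 CPM, with the ligand gene Shh at only 9.43, 4.19, 26.01 and 17.6. All 3 were highest in replicate 3 and lowest in replicate 2. Cdh3, the P-cadherin of the hair germ, was at 224, 264, 282 and 304 CPM and the Wnt receptor gene Fzd7 at 365, 479.8, 357 and 383. The transcription factor gene Lef1, known from the hair matrix, was low, at 17.97, 16.01, 24.8 and 18.4 CPM.

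Genes of the other epidermal compartments were detected at graded levels. Summed per length, the 13 basal keratinocyte genes were at 30409 ± 6489 TPM, the 12 bulge genes at 14176 ± 4926 and the 8 genes of the outer root sheath and companion layer at 6722 ± 358. Single keratins carried these sums: Krt5 made up 50.3% of the basal one, Krt15 82.5% of the bulge one and Krt17 71.0% of that of the outer root sheath. The 18 genes of epidermal terminal differentiation summed to 2227 ± 1219 TPM, the 8 of the upper follicle to 1589 ± 143, the 10 of the hair germ to 1158 ± 86.03, the 26 inner root sheath and hair shaft genes found in the table to 722 ± 364 and the 11 of the sebaceous gland to 489 ± 19.97. The basement membrane genes of basal cells were high in each library, with Col17a1, a hemidesmosomal collagen, at 2826, 4117, 1744 and 2792 CPM and the integrin gene Itga6 at 574, 700.5, 341 and 625. Of the 13 basal genes, 12 were lowest in replicate 3, whereas 34.6% of the 14090 genes with a mean of at least 1 CPM were lowest there. In bulk libraries fewer cells of a type and less RNA per cell cannot be told apart.

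**Figure D2:**
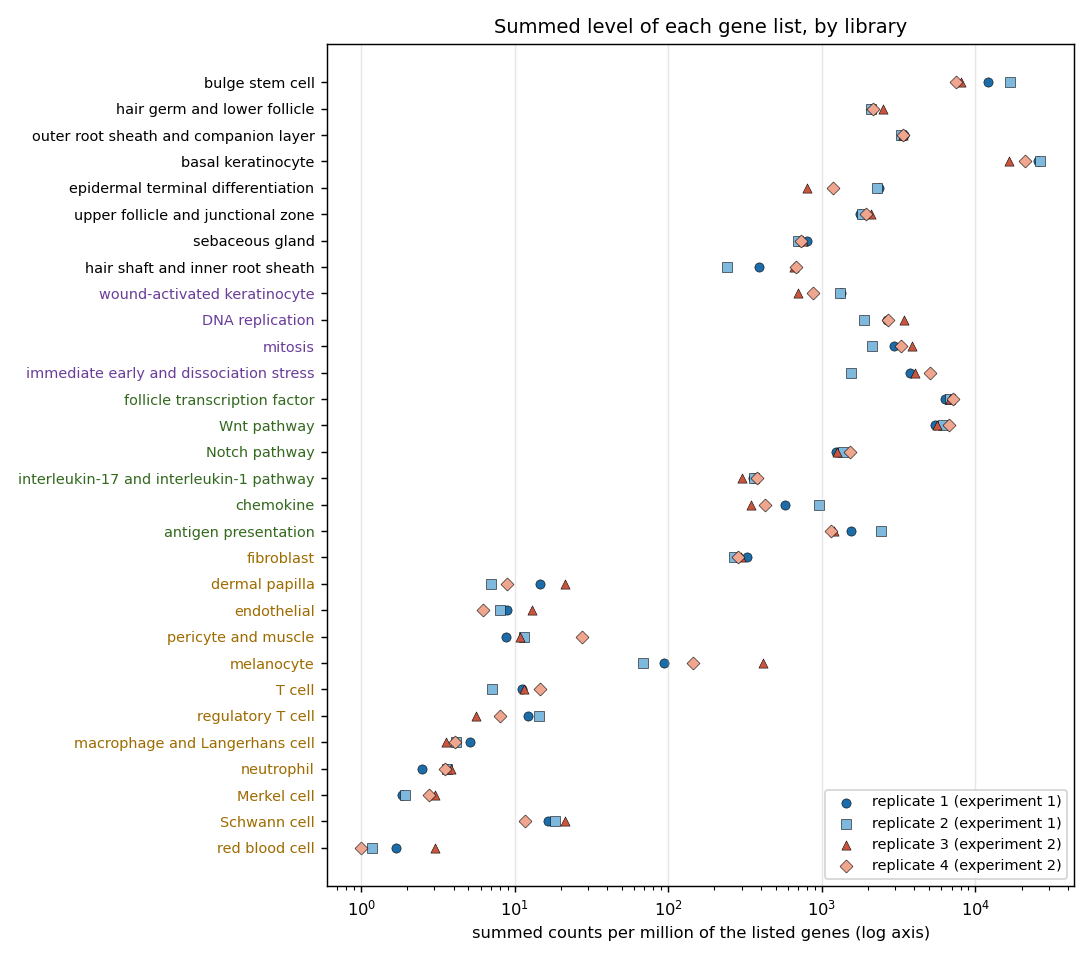
Summed CPM of each gene list in each of the 4 Treg-sufficient libraries, on a log axis; blue points are experiment 1 and red points experiment 2. List names are black for skin compartments, purple for cell states, green for functional groups and brown for other cell types, and lists under 1 CPM in the mean are left out. Sums of different lists are not scaled for gene length; libraries can be compared within a row, and the rows of the outer root sheath and the fibroblast list are narrow while those of terminal differentiation and melanocyte genes are wide.

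Terminal differentiation genes of the interfollicular epidermis included abundant keratins of the first suprabasal layers and scarcer cornified envelope genes. Krt1 was at 697, 539.9, 81.9 and 249 CPM and Krt10 at 558, 522, 74.5 and 238, with Krt77, a keratin of suprabasal cells and sweat ducts, at 169, 230.1, 8.16 and 81.1. In all 3 replicate 3 was lowest, and both libraries of experiment 1 were above both of experiment 2. The order of the experiments was shared by 21.7% of the 16720 genes tested. Lor, which encodes a main cornified envelope protein, was at 2.898, 6.79, 0.489 and 1.77 CPM, Flg2 at 3.08, 9.88, 0 and 1.601 and Flg, which encodes filaggrin, at 0, 0, 0 and 0.0334. Replicate 3 had no count for Flg, Flg2 or Hrnr, which at its depth allows up to 0.113 CPM (3 counts, counting error only). Other genes of late differentiation were higher, with Calm4, a calmodulin-like gene, at 47.9, 94.04, 24.2 and 23.8 CPM, the protease gene Klk7 at 19.04, 44.4, 19.3 and 25.6 and Casp14, a caspase gene of cornification, at 9.79, 17.7, 5.600 and 7.67. Sbsn and Krtdap, secreted products of differentiating keratinocytes, were at 435, 354, 263 and 230.1 CPM and 132, 145, 29.3 and 38.9 CPM. Of the 17 listed genes with a mean of at least 1 CPM, 13 were lowest in replicate 3, against 34.6% of all genes at that level, and 13 were highest in replicate 2, against 29.1%. The desmosomal gene Dsg1a did not share that order, at 242, 236, 262 and 242 CPM.

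The opposite order was seen for several keratins of the inner root sheath. Krt28 was at 51.9, 11.9, 119 and 103 CPM, Krt25 at 24.8, 1.42, 49.6 and 74.8, Krt73 at 26.5, 5.199, 75.5 and 47.97 and Krt71 at 28.9, 8.25, 43.3 and 122; all 4 encode keratins of the inner root sheath, and each was lowest in replicate 2 and higher in both libraries of experiment 2 than in those of experiment 1. Both libraries of experiment 2 were above both of experiment 1 for 17.9% of the 16720 genes tested. Of the 14 inner root sheath and hair shaft genes with a mean of at least 1 CPM, 11 were lowest in replicate 2, against 26.9% of all genes at that level. Hair shaft keratins were scarce: Krt35, of the early cortex and cuticle, was at 10.2, 4.298, 31.4 and 22.2 CPM, while Krt31, Krt33a, Krt34, Krt36, Krt81, Krt82, Krt84 and Krt86 had means under 1 CPM and Krt33b had no count. The follicle regulator genes Gata3 and Hoxc13 were steadier at 84.1, 77.6, 97.2 and 91.8 CPM and 63.1, 76.6, 81.1 and 60.98 CPM. Dlx3, a homeobox gene of the hair matrix, followed the inner root sheath keratins at 52.3, 24.7, 120.0 and 97.9 CPM. Tchh, on the same list, did not share their order and was lowest in replicate 3, at 20.6, 12.3, 7.48 and 24.7 CPM. The listed keratin genes Krt26 and Krt72 had means under 1 CPM.

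Upper follicle and sebaceous genes were detected in all libraries, with sums whose CV in CPM was 7.4025% and 5.85%. Single members varied more, with a median CV of 24.5% and 13.2%. The same held for the outer root sheath, whose sum had a CV of 1.75% and whose members had a median CV of 41.2%. Krt79 was at 911, 876, 1230.1 and 970.1 CPM, Lrig1, a stem cell marker of the junctional zone, at 447, 493, 479 and 674 and Lgr6, an Lgr5 relative of the isthmus, at 321, 283, 260.0 and 205. Lipid synthesis genes were detected, with Scd1, a fatty acid desaturase, at 248, 198, 223 and 234 CPM and Fasn, the fatty acid synthase, at 331, 281, 325 and 296. Awat1, Awat2, Elovl3 and Pparg, closer to mature sebocytes, had means of at most 2.41 CPM.

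Promoter sequences are shown for genes that led the transcriptome or that varied most between these libraries. The gene groups differed in how often the bases before the start held the letters TATAAA, a form of the TATA box. The hexamer TATAAA was searched on both strands of the 100 bases before each start site in RefSeq's table of GRCm38.p6 promoters. The hexamer was found in 5.56% of all 32851 promoters, and in 2.5% of the 12526 promoters of nuclear protein-coding genes with a mean of at least 1 CPM here. It was found in 7 of 17 promoters of terminal differentiation genes (41.2%) and in 10 of 19 on the hair shaft and inner root sheath list (52.6%), but in 0 of 16 promoters of DNA replication genes, 0 of 15 of mitosis genes and 1 of 24 of immediate early genes. Among the 2538 protein-coding genes with a mean of at least 100 CPM, the share was larger in each step of higher CV, at 1.29%, 1.68%, 2.87% and 4.51% in 4 groups of equal size. The 100 genes of largest CV held it in 10.8% of their promoters and the 100 of smallest CV in 2.63%, beside 2.56% for all 2538. The 100 genes highest per length held it in 11.6%, so a large share was not particular to genes of large spread. Krt1, Krt10 and Krt77 belong both to the terminal differentiation list and to the genes of largest CV, so the shares are not independent of each other, and no test was made. A match of letters is a description of the sequence and not a mapped binding site, and RefSeq's start may differ from the start used in these cells. The windows below run 5′ to 3′ up to the base before the start, with TATAAA in capitals; Krt5 (chr15:101712906-101713005, minus strand) is shown as the most abundant gene, Cd34 (chr1:194938721-194938820, plus strand) for its difference between experiments, Krt10 (chr11:99389365-99389464, minus strand) and Krt71 (chr15:101743098-101743197, minus strand) for differentiation and the inner root sheath, and Postn (chr3:54361007-54361106, plus strand) and Fos (chr12:85473790-85473889, plus strand) for their spread.
Krt5: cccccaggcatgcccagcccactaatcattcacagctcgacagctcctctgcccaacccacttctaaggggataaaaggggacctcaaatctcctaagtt
Cd34: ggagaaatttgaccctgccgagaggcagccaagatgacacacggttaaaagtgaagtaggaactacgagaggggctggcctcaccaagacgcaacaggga
Krt10: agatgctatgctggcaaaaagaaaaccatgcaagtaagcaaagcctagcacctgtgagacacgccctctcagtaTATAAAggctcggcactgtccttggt
Krt71: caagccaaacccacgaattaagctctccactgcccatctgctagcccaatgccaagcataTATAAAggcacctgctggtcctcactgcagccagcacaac
Postn: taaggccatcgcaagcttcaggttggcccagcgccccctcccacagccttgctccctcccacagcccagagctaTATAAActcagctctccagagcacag
Fos: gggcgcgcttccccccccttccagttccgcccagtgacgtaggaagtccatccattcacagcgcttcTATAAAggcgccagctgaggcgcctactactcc
The hexamer begins at position -26 from the start in Krt10 and Postn, -40 in Krt71 and -33 in Fos. For Krt71 the GENCODE gene reaches base 101743109, so the last bases of the printed window lie within that gene. Only the exact hexamer was searched, not its variants, and the windows of Krt5 and Cd34 do not hold these letters. The table gives a second start for Postn, further upstream, whose window does not hold them either. The Fos window is the 1 of 24 immediate early promoters with the hexamer, so it is not typical of that list.

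**Figure D3:**
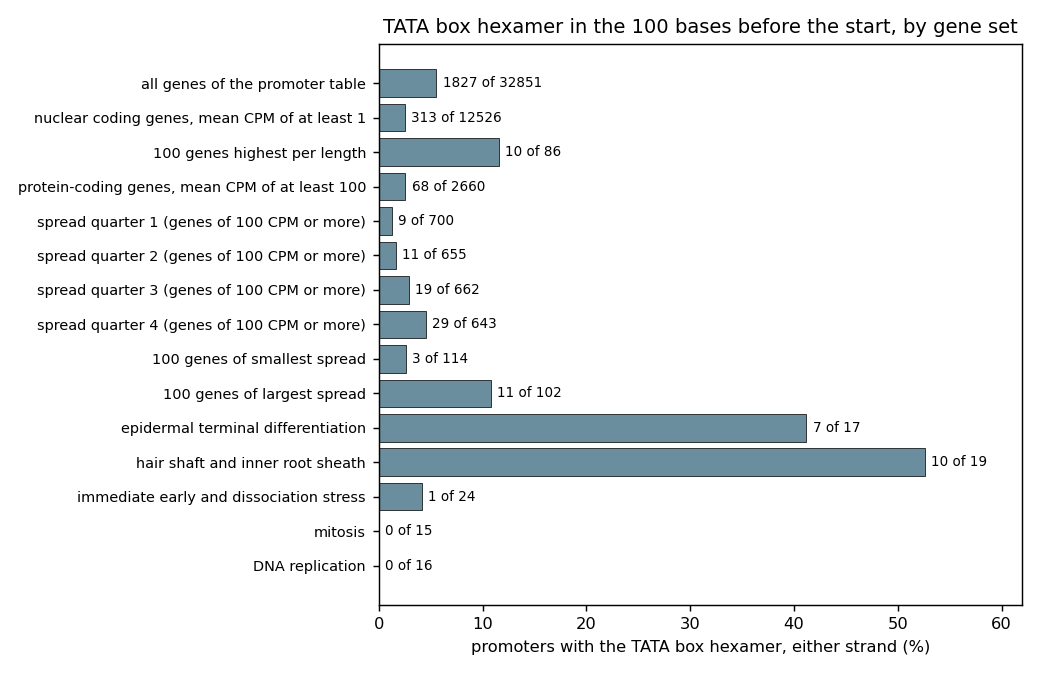
Percent of RefSeq promoters whose 100 bases before the start hold the TATA box hexamer on either strand, for all genes of the table, for genes grouped by level or by spread in these 4 libraries, and for 5 gene lists. The numbers beside the bars are promoters with the hexamer of all promoters of the set; the 2 bars of differentiation and hair lists, 41.2% and 52.6%, exceed all others, and mitosis and DNA replication are at 0.

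Cell cycle transcripts were present in all libraries and shared an order among them. Mki67, a marker of cycling cells, was at 871, 629, 1149 and 1031 CPM, Top2a, a topoisomerase of dividing cells, at 552, 405, 718 and 649.9 and the replication clamp gene Pcna at 227, 154, 299.6 and 202. Replicate 3 was highest and replicate 2 lowest for each of these. The same order held across the lists: 17 of 17 DNA replication genes and 17 of 18 mitosis genes were highest in replicate 3, and 17 of 17 and 18 of 18 were lowest in replicate 2. Over all 14090 genes with a mean of at least 1 CPM, 30.4% were highest in replicate 3 and 26.9% lowest in replicate 2. The sums were 2641, 1875, 3420.1 and 2691 CPM for DNA replication and 2949, 2117, 3873 and 3273 CPM for mitosis. Replicate 2 was also the library with the female pattern of Xist, and the part of that difference in the result was not tested. Of the 18 mitosis genes, Cenpe, which encodes a kinetochore motor, was the exception that was highest in replicate 4, at 118, 85.5, 119 and 122 CPM.

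Immediate early genes, which respond within minutes to stimulation and to tissue dissociation, separated replicate 2 from the other 3 libraries. Fos was at 671, 127, 697 and 954 CPM, Fosb at 192, 29.2, 150.4 and 249, Atf3 at 224, 30.2, 252 and 309.8 and the orphan nuclear receptor gene Nr4a1 at 211, 46.9, 361 and 345. For these 4 genes replicate 2 was at least 4-fold below the next library. Of the 23 listed genes, 22 were lowest in replicate 2, against 26.9% of all genes with a mean of at least 1 CPM, and 14 were highest in replicate 4, against 22.9%. Of the 22 with a mean of at least 10 CPM, 11 were at least 2-fold below each of the other libraries in replicate 2, where 0.469% of all 10029 genes at that level were. Hspb1, a small heat shock protein gene on the same list, did not share the pattern, at 165, 163, 140.0 and 160.3 CPM. The closely related genes Hspa1a and Hspa1b were at 49.1, 33.00, 108 and 124 CPM and 244, 179, 368 and 409.9 CPM, and the split of reads between them is uncertain.

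Genes of wound-activated keratinocytes were led by Krt6a, Krt16 and Tnc. Krt6a was at 732, 597, 309.8 and 201 CPM and Krt16 at 156, 150.4, 75.5 and 51.9, both higher in the 2 libraries of experiment 1, and Krt6a is uncertain because Krt6b is nearly identical. Tnc, which encodes the matrix protein tenascin C, was at 260.3, 435, 235 and 551 CPM, higher in replicates 2 and 4. Krt6a, Krt6b and Krt16 are also on the list of the outer root sheath and companion layer, so the 2 sums are not independent. Other genes known from wound edges were low in these cells: the epidermal growth factor receptor ligand gene Areg was at 18.9, 7.59, 2.74 and 1.101 CPM, and Mmp9, S100a8 and S100a9 had means under 1 CPM.

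Transcription factor genes of the follicle had a steady sum. All 36 reached 1 CPM in all 4 libraries, 16 had a mean of at least 100 CPM, and the sum of 6356, 6839, 6813 and 7157 CPM had a CV of 4.85%. Single members varied more, with a median CV of 19.0%, beside 18.6% for Wnt pathway genes, 18.3% for Notch pathway genes and 14.95% for all genes with a mean of at least 1 CPM. Vdr, the vitamin D receptor gene that the hair cycle requires, was the highest per length at 646 ± 98.2 TPM, followed by Trp63, the p63 gene of stratified epithelia, at 458 ± 65.01 and Barx2 at 422 ± 134. Tfap2a, of the AP-2 family, was at 145, 145, 141 and 144 CPM, a CV of 1.38%. Cux1 and Dlx3 varied more, with Cux1 at 254, 134, 486 and 312 CPM, highest in replicate 3 and lowest in replicate 2 like the cell cycle lists.

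Of the Wnt pathway, several receptor and inhibitor genes were more abundant than any Wnt ligand gene. Ctnnb1, the gene of beta-catenin, was at 1161 ± 136 TPM and held 27.4% of the TPM of the 34 listed genes. The secreted inhibitor genes Sfrp1 and Dkk3 were at 719 ± 290.1 and 223 ± 73.7 TPM and Sostdc1, an inhibitor of BMP and Wnt signals, at 409 ± 70.8. Among receptors, Fzd7 was at 306 ± 50.2 TPM, Lgr4 at 285 ± 66.03, Lgr5 at 145 ± 25.1 and Lgr6 at 136 ± 21.7. Scaled by the longest transcript instead, Lgr5 was at 235.8 TPM and Lgr6 at 106, so how close these 2 lie depends on the length used. Lgr4 was at 384, 407, 526 and 597 CPM, higher in both libraries of experiment 2, and Lgr6 at 321, 283, 260.0 and 205 CPM, higher in both of experiment 1. The Wnt ligand genes ranged in the mean from 0.486 TPM (Wnt16) to 77.7 TPM (Wnt4). Axin2, a common transcriptional target of the pathway, was at 27.1, 34.4, 34.1 and 30.7 CPM. Sfrp5 summed to 37 counts over the 4 libraries.

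The Notch pathway was carried by Jag1 and Jag2 as ligand genes, at 209.6 ± 33.3 and 119 ± 11.99 TPM, against 14.5 ± 3.11 for Dll1 and 0.283 ± 0.187 for Dll4. Notch1 was the leading receptor gene at 215, 225, 213 and 318 CPM, with replicate 4 above the other 3. Hes1, a target gene of Notch, was at 84.3, 81.4, 138 and 157 CPM, higher in both libraries of experiment 2.

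Signals to immune cells were mostly low, apart from a few genes. Cxcl14 was the leading chemokine gene, with 76.6% of the TPM of the 16 listed, at 305, 559, 203 and 263 CPM. Cxcl12, the ligand of Cxcr4, was at 159, 272, 82.9 and 88.7 CPM. Both were highest in replicate 2 and lowest in replicate 3. The neutrophil attractant gene Cxcl5 was at 0.3301, 0.173, 0.0376 and 0.0667 CPM (17 counts over the 4 libraries), Cxcl2 at 0.697, 0, 0.188 and 0.0334 and Cxcl1 at 6.97, 4.89, 4.28 and 1.401. Il17ra, the shared receptor chain for interleukin-17 family ligands, was at 25.3, 32.2, 21.7 and 25.9 CPM, and the partner chain genes Il17rc and Il17re were higher per length, at 52.2 ± 15.03 and 26.8 ± 4.601 TPM against 10.6 ± 1.995. Il1r1, the interleukin-1 receptor gene, was at 37.3, 36.4, 39.99 and 45.1 CPM, while the ligand gene Il1b summed to 17 counts over all 4 libraries. Class I antigen presentation genes were higher, with B2m, the light chain of class I molecules, at 457, 698, 374 and 349 CPM and H2-K1 at 414, 699, 289 and 247. Of the 12 listed antigen presentation genes with a mean of at least 1 CPM, 11 were highest in replicate 2, against 29.1% of all genes at that level. Class I heavy chain genes are near-identical to each other, so their single values are uncertain.

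Markers of other cell types were scarce, with 2 exceptions. Ptprc, the CD45 gene of blood cells, summed to 20 counts over the 4 libraries, Cd3e to 2, Cd3d to 11, Cd3g to 0 and the Langerhans cell gene Cd207 to 22. Foxp3, the defining gene of regulatory T cells, was at 0.807, 0.589, 0.1503 and 0.367 CPM (54 counts in all). The T cell list was at 11.2, 7.11, 11.4 and 14.6 CPM, of which Thy1, also made by other cells, held 77.6% per length, and the list of regulatory T cells at 12.2, 14.5, 5.64 and 8.07 CPM, mostly Ikzf2. Endothelial genes summed to 8.95, 7.97, 12.9 and 6.21 CPM, and mast cell, adipocyte and red blood cell genes had means of at most 1.73 CPM. The Merkel cell genes Atoh1, Krt20 and Isl1 had no count in any of the 4 libraries. The fibroblast list, the first exception, was at 328, 269, 297 and 284 CPM, but Fbln1, which encodes fibulin 1, held 82.0% of its TPM; Pdgfra, Dpt and Mfap5 had means under 1 CPM, and Col1a1 had a mean of 9.28 CPM. Dcn, the gene of the matrix proteoglycan decorin, was at 30.6, 7.21, 41.6 and 84.00 CPM, highest in replicate 4 and lowest in replicate 2, and Col1a2, a collagen I chain gene, at 34.9, 14.1, 17.6 and 9.77.

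Melanocyte genes were the second exception and differed between libraries more than any other list with a mean of at least 100 CPM. Their sum was 93.3, 68.8, 415 and 146 CPM in replicates 1 to 4. Dct, a melanin synthesis enzyme, was at 31.6, 18.02, 184 and 61.7 CPM, Tyrp1, its relative, at 7.299, 4.82, 71.2 and 22.5 and the melanosome matrix gene Pmel at 9.79, 5.79, 76.6 and 22.9. Replicate 3 was highest for 7 of the 8 listed genes, against 30.4% of the 14090 genes with a mean of at least 1 CPM. Replicate 4 was the second for Dct, Tyrp1, Pmel and Tyr. Mitf, the listed gene not highest in replicate 3, is also transcribed in other cells and was at 34.7, 34.5, 26.9 and 16.4 CPM. Vim, the vimentin gene of mesenchymal and melanocyte lineages, was also highest in replicate 3, at 17.4, 10.1, 63.9 and 16.8 CPM (a gene named after its values were seen).

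Replicate 3 was also set apart by posterior Hox genes, which record the position of a tissue along the body axis; this family was looked at after its values were seen. Hoxa9 was at 7.08, 5.303, 37.5 and 2.84 CPM, Hoxb9 at 17.2, 27.9, 73.2 and 18.7 and Hoxc9 at 0.917, 0.347, 4.43 and 0.234. Hoxd9 was lower, at 0.2201, 1.32, 2.29 and 0.4003 CPM. All 4 genes of paralogue group 9 were highest in replicate 3, against 30.4% of the 14090 genes with a mean of at least 1 CPM. The sum of group 9 was 25.4, 34.9, 117 and 22.2 CPM. The neighbouring group 8 was at 128, 152, 223 and 161 CPM, with Hoxd8 at 24.5, 31.4, 79.5 and 39.5. Groups 1 to 7 did not separate the libraries in this way: group 5 summed to 47.8, 57.9, 54.1 and 68.0 CPM and group 7 to 78.1, 75.3, 84.0 and 62.2. Groups 10 to 12 were below 1 CPM in every library, and in group 13 only Hoxc13, a hair follicle gene, was above 1 CPM. The body site of the skin is not given in the sources used here.

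**Figure D4:**
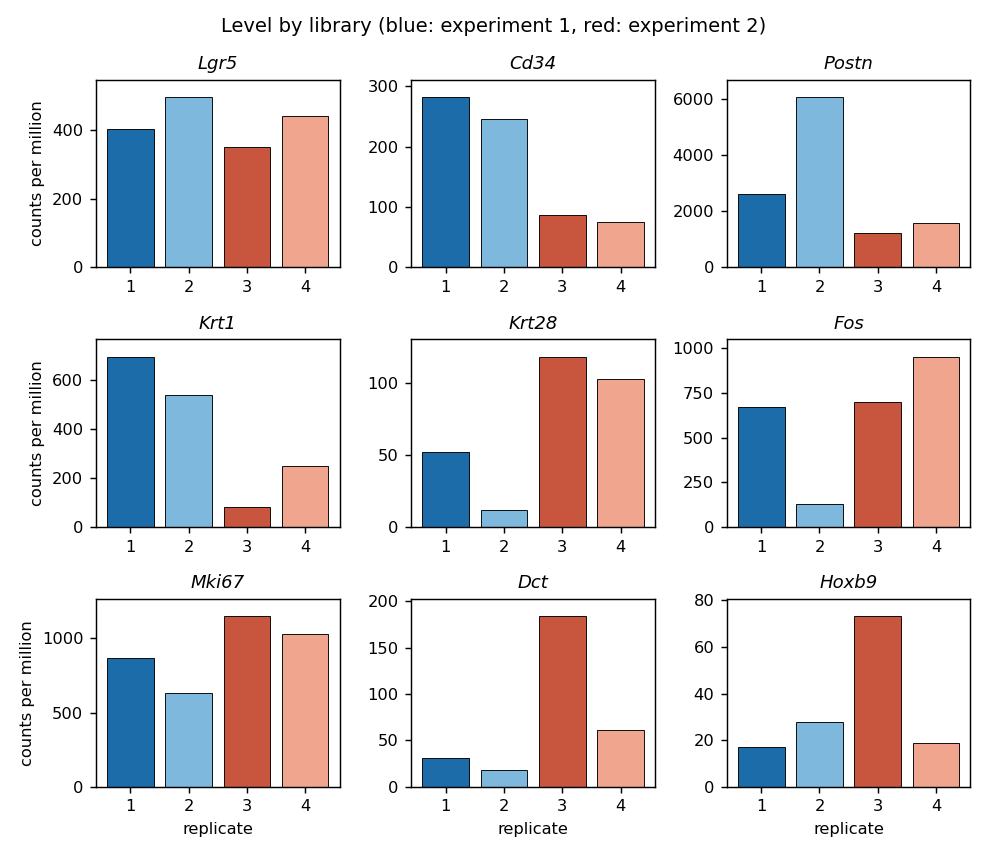
CPM of 9 genes in replicates 1 to 4, blue for experiment 1 and red for experiment 2, each panel with its own axis from 0. Lgr5 overlaps between the experiments; Cd34 and Krt1 are higher in experiment 1, Krt28 is higher in experiment 2, Postn is highest and Fos lowest in replicate 2, and Dct and Hoxb9 are highest in replicate 3.

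Spread between libraries exceeded counting error for most genes. The biological coefficient of variation, the spread beyond counting error that edgeR estimated over 14746 genes, was 0.232. Genes between 100 and 1000 CPM had a median CV of 10.7%, where counting alone would give 1.49%. Of these 2499 genes, 1146 had a CV under 10% and 31 had one over 50%. The 10 genes of smallest CV among the 2538 with a mean of at least 100 CPM were Ensa, Tmx1, Atxn2l, Vdac1, Pik3r2, Gng12, Khdc4, Tfap2a, Slmap and Spcs1. Ensa, an inhibitor of the phosphatase PP2A, was at 171, 173, 173 and 169.9 CPM, and the mitochondrial channel gene Vdac1 at 298, 298, 291 and 296. Their CVs, from 0.870% to 1.59%, were at or below those of counting error, and as the lowest of many genes they are a description only. The 10 genes of largest CV were Fcgbp, Krt77, Postn, Krt1, Lars2, Il31ra, Htra1, Krt10, Thbs1 and Ccn2. Of these, Postn, Htra1, Thbs1 and Ccn2 encode secreted or matrix proteins, and all 4 were highest in replicate 2: Thbs1, which encodes thrombospondin 1, was at 667, 1664, 562 and 509.9 CPM, the serine protease gene Htra1 at 158, 373, 115 and 106 and Ccn2, a target of YAP, at 139, 308, 95.2 and 97.5. Fcgbp, a mucin-like protein gene, was at 114, 372, 28.9 and 33.8 CPM, also highest in replicate 2. Lars2, the mitochondrial leucyl tRNA synthetase gene, was at 615, 267, 302 and 1166 CPM, and counts of nuclear ribosomal RNA genes had nearly the same order, at 494, 269.8, 257 and 1566 CPM; the part of ribosomal RNA in the Lars2 value was not tested.

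**Figure D5:**
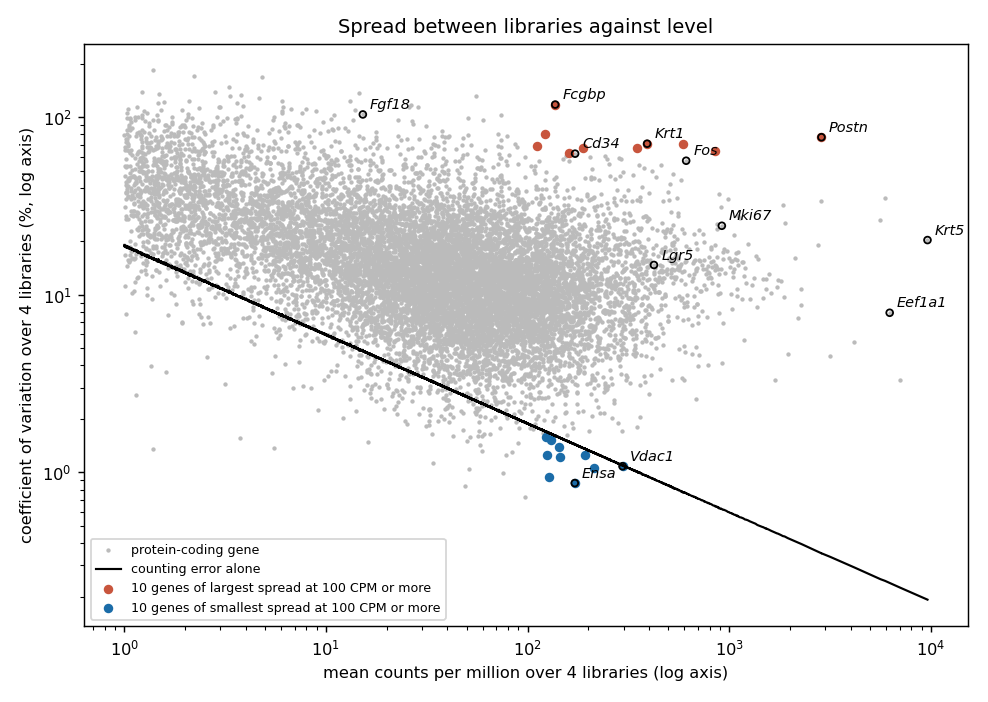
Coefficient of variation over the 4 Treg-sufficient libraries (percent, log axis) against mean CPM (log axis) for protein-coding genes of at least 1 CPM. The line is the value that counting error alone would give; Vdac1 lies at it and Ensa below it, Lgr5 (14.7%) lies amid the genes of its level, and Postn, Krt1 and Fcgbp lie far above.

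Libraries differed in how many genes set them apart. Among the 10029 genes with a mean of at least 10 CPM, 39 genes (0.389%) were at least 2-fold above each of the other libraries in replicate 2 and 47 (0.469%) at least 2-fold below. The corresponding numbers were 13 (0.13%) and 3 (0.0299%) in replicate 1, 10 (0.0997%) and 37 (0.369%) in replicate 3, and 16 (0.16%) and 19 (0.189%) in replicate 4. Replicate 3 held 3 of the 10 terminal differentiation genes at that level among its low ones and 3 of the 5 melanocyte genes among its high ones. Replicate 2 held 6 of the 10 inner root sheath and hair shaft genes among its low ones.

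No gene passed the test between the 2 experiments within these libraries. The libraries of experiment 2 were compared with those of experiment 1 with the quasi-likelihood test of edgeR, with p adjusted by Benjamini-Hochberg over 16720 genes (2 libraries each, 2 residual degrees of freedom), and 0 genes (0.0%) had an adjusted p under 0.05. An unadjusted p under 0.05 was reached by 1423 genes (8.51%), 622 higher (3.72%) and 801 lower (4.79%) in experiment 2. The libraries of the experiments did not overlap for 6630 genes (39.7%), 17.9% with experiment 2 higher and 21.7% with experiment 1 higher. With 2 libraries in each experiment, random order alone separates them for many genes, so these shares are a description only. The number of genes called depended on the tool: DESeq2's Wald test gave 255 calls and limma-voom 6. It also depended on each library, since leaving out replicate 1, 2, 3 or 4 gave 482, 144, 110 and 120 calls, where the single library left in an experiment is assumed to vary like the other experiment. In simulated counts for the same 16720 genes, 200 genes were changed, drawn only from those with higher counts. Of these, 96% of the genes changed by 2 log2 units and 40% of those changed by 1 were recovered, but 12.3% of the calls were unchanged genes. The simulation held no changed genes of low count and no library that stood apart, so recovery in the real libraries may be lower. Differences below are log2 values, experiment 2 minus experiment 1, and none of them passed the main test.

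Of the 10 genes of smallest p, 9 were higher in experiment 1. Il31ra, a receptor chain for interleukin-31, was at 169.5, 186, 43.7 and 47.8 CPM, a difference of -1.94 (SE 0.14, adjusted p = 0.0556). Cd34, given above, differed by -1.69 (SE 0.16, adjusted p = 0.0556), and Krtdap by -2.0 (SE 0.18, adjusted p = 0.0556). In each of these, as in Cdh13 (-1.72), a cadherin without a cytoplasmic tail, and Tmtc1 (-1.62), both libraries of experiment 1 were higher. Cbs, the enzyme that makes cystathionine from homocysteine, was higher in experiment 2, at 37.5, 34.7, 115 and 106 CPM and a difference of 1.63 (SE 0.15, adjusted p = 0.0556). The other 4 were Aqp3, a water and glycerol channel of basal keratinocytes (-1.55), the skin chemokine Ccl27a (-1.44), the collagen gene Col8a2 (-2.03) and Krt24 (-2.18), with edgeR adjusted p between 0.0892 and 0.135. These 10 were chosen for their p, so their sizes are a description. For comparison, Lgr5 differed by -0.17 (SE 0.19, adjusted p = 0.85) and Krt5 by -0.49 (SE 0.20, adjusted p = 0.581) in the same edgeR fit.

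By gene list the differences between experiments were uneven, beside a median of 0.00 over all 16720 genes, of which 50.3% were positive and 49.7% negative. Without overlap between experiments, 17.9% of all genes were higher in experiment 2 and 21.7% higher in experiment 1. Terminal differentiation genes had a median of -1.74, with 16 of 17 tested genes negative, 12 higher in experiment 1 without overlap and 1 higher in experiment 2 without overlap; without replicate 2 the median was -1.0. Hair shaft and inner root sheath genes had a median of 1.30, with 14 of 18 positive and 12 higher in experiment 2 without overlap and 2 higher in experiment 1. Melanocyte genes had a median of 2.45 (7 of 8 positive), and of 1.02 without replicate 3. Immediate early genes had 0.83 (22 of 23 positive), and mitosis and DNA replication 0.52 (18 of 18) and 0.45 (17 of 17). These 3 medians depended on single libraries. Without replicate 2 they were 0.26, 0.25 and 0.25. Without replicate 1 they were 1.41, 0.80 and 0.73, without replicate 3 they were 0.93, 0.29 and 0.25, and without replicate 4 they were 0.45, 0.69 and 0.60. Chemokine genes (-1.03, 10 of 11 negative), wound-activated keratinocyte genes (-1.01, 14 of 16 negative) and antigen presentation genes (-0.65, 13 of 13 negative) were on the other side; without replicate 2 the median of antigen presentation genes was -0.32. Follicle transcription factor genes, at 0.06, and Wnt pathway genes, at 0.10, lay near the median of all genes, but their members went both ways. Of 36 follicle factor genes, 14 were higher in experiment 2 without overlap and 8 higher in experiment 1. For the 33 Wnt pathway genes tested these numbers were 11 and 8. In none of these lists did a gene pass the edgeR test. Each experiment held 1 library that stood apart, replicate 2 by its sex-linked genes and replicate 3 by its melanocyte and Hox values. Cd34, Il31ra and Krt16 put replicate 1 with replicate 2 and replicate 4 with replicate 3, whereas Fos and Hoxa9 differed mainly in 1 library.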

How the data were processed

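Counts per gene for these 4 libraries were taken from the table of raw read counts that the authors deposited, with no normalization. The labels' protocols describe flash freezing of the sorted pellet, RNeasy spin columns for RNA and a stranded, poly(A)-selecting TruSeq kit for the libraries. The submitters' processing notes name the build GRCm38.p4 and, with no role or order, DESeq2, HTSeq, SAMtools and TopHat2 (version 2). Neither the gene annotation's release nor the strand setting is given in the sources used here, so reads of overlapping and antisense genes may be mixed. Of the reads listed, 6.70 to 8.98% fell in no gene, 2.93 to 3.01% in more than 1 gene, and 26.2 to 29.2% at more than 1 place in the genome; the 5 tallies of such reads were left out of totals and tests. Replicate numbers follow accession order and pair nothing.

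CPM used library totals over genes, and TPM the union exon length in GENCODE M21. Experiments were compared in R 4.3.3 with edgeR 4.0.16 (TMM factors, filterByExpr with a minimum count of 10, quasi-likelihood test, adjusted p threshold 0.05); limma 3.58.1 (voom) and DESeq2 1.42.0 were alternatives, as were other scalings, no filter and leaving out each library. The fit was tested on simulated counts. Libraries, 32 gene lists and rules were chosen with earlier results of these data known. Genes were named by rule: the 25 highest per length, the 5 highest per length and the most variable in each list, the 10 of smallest p between experiments, the 10 most and least variable of at least 100 CPM, and 15 fixed genes; other listed genes are named as members of their list. Krt85, Il36a and Il36g were not analysed here.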

Additional observations from a re-analysis of the deposited data

Results flagged for a closer look

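Values were screened for a library far from the other 3, by the ratio of its gap to the nearest library over the whole range. Of 207 gene, list and class values with a mean of at least 1 CPM, 10 stood out, and chance alone flags about 1 in 20 such groups. The number flagged was thus about what chance alone would give, and the values below are a description only. No value stood out in replicate 1.

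In replicate 2, Xist was far above the rest at 2713 CPM, as were Thbs1 at 1664 CPM, Cxcl16, a transmembrane chemokine gene, at 36.8 CPM and Elovl3, a fatty acid elongase gene, at 5.10 CPM. In replicate 3, the melanocyte gene Mlana was far above the rest at 10.6 CPM and the muscle gene Mylpf at 4.10 CPM, and the decoy receptor gene Il1r2 was far below with a CPM of 0. In replicate 4, Notch1 was far above the rest at 318 CPM and the list of pericyte and muscle genes at 27.5 CPM, mostly from Acta2, and Fbln1 was far below at 179.9 CPM.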

How the results depend on the processing

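The number of genes called between experiments was the least stable value. It was 0 in the main fit and with DESeq2's size factors, 6 with upper-quartile factors, 6 with limma-voom, 255 with DESeq2's Wald test (which gave no adjusted p for 1621 genes), 726 without the filter on low counts and 110 to 482 when 1 library was left out; the cause was not tested. The 10 genes of smallest p kept their direction in all 90 alternative values. Because they were chosen for their p in these same libraries, that was close to fixed in advance and gives no independent support. Of the 10, Cd34, Krtdap, Il31ra, Cbs, Cdh13 and Tmtc1 were among the genes called with upper-quartile factors, limma-voom, DESeq2's Wald test and no filter. With DESeq2's size factors in edgeR they were not called. These calls are no independent support either. The biological coefficient of variation was 0.232, was 0.305 without the filter and ran from 0.212 to 0.255 when 1 library was left out. The number of genes detected stayed within 1.5 times under all 7 alternatives. The number of genes holding 50% of the counts was 1256, and 689 by length-scaled level, a different quantity. Of 192 alternative values of list sums, 191 moved by less than 1 SD; the outer root sheath list was at 3426 CPM against 3363 with totals that leave out mitochondrially encoded genes. TMM scaling moved no named gene's CPM by 1 SD, whereas the length of the longest transcript moved 56 of 167 length-scaled levels by more than 1 SD, among them Cd34, from 82.0 to 148.9 TPM, and Lgr5, from 145 to 235.8 TPM. Leaving out each library for the median difference of each gene list was an alternative chosen after seeing the data; hair shaft and inner root sheath, chemokine and wound-activated keratinocyte genes stayed within 1.5 times in all 4 cases. No paired analysis was possible because a single condition was used and its replicate numbers follow accession order. With 2 libraries in each experiment, differences near 1 log2 unit are often missed, and genes below about 1 CPM are limited by counting.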
